A study of Mus musculus with 6 samples.

Results

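The regions described here are the H3K79me2 peaks at the proximal (centromere-side) ends of the mouse chromosomes that may carry ribosomal RNA genes (rDNA). They were chosen by position alone: a called peak belonged to the set when it lay wholly between 3 and 20 Mb of chr12, chr15, chr16, chr18 or chr19, and the same 3 to 20 Mb of the other 14 autosomes served for comparison. In the broad peak lists 1586 of 48764 peaks (CTR replicate 1), 1170 of 34845 (CTR replicate 2), 1429 of 44228 (NPM1 KD replicate 1) and 1531 of 46565 (NPM1 KD replicate 2) met this rule, and in the narrow lists between 2410 and 2846 of 73801 to 88348 per library did. The 5 windows span 85 Mb of the GRCm38 (mm10) assembly and hold 1807 annotated genes wholly inside them, 756 of them protein coding. The cells were N2a, an established mouse neuroblastoma line, transfected with a pLKO.1 plasmid that expresses either a control hairpin (shControl, CTR) or a hairpin against Npm1 (shNpm1, NPM1 KD), selected with puromycin from the day after transfection and fixed on day 3. Each group had 2 biological replicates, which came from different passages and separate transfection batches, and 1 input was sequenced per group; the inputs were not used here because only peak lists entered the work. A bulk preparation cannot tell a weaker mark in every cell from a mark in fewer cells.

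In the mouse, rDNA repeats lie in tandem arrays next to the centromeres of some chromosomes, and the nucleolus, where the ribosome is assembled, forms around the active arrays. The arrays themselves are not part of the assembled chromosome sequence, so a peak list can describe only the gene-bearing DNA that follows them. H3K79me2 is written by DOT1L and covers the 5' parts of transcribed genes, often as wide domains, while NPM1 (nucleophosmin) is an abundant nucleolar protein and histone chaperone. The comparison asks how far the mark extended over genes near these arrays, and whether the NPM1 KD cells differed there from the other chromosome ends.

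In 4 of the 5 windows the 200 bases around the summit of the strongest narrow peak held more CG than most summits. The CG count of the remaining window is not given. The 4 stretches are shown as read from the forward strand of GRCm38, with each CG in capitals. They lie at chr12:17545260-17545459 in an intron of Odc1 (ornithine decarboxylase, first enzyme of polyamine synthesis), chr15:11995532-11995731 in an exon at Sub1 (a transcription coactivator), chr16:8737780-8737979 in an intron of Usp7 (a deubiquitinase) and chr19:10948440-10948639 in an exon at Ccdc86 (a nucleolar protein).
Odc1: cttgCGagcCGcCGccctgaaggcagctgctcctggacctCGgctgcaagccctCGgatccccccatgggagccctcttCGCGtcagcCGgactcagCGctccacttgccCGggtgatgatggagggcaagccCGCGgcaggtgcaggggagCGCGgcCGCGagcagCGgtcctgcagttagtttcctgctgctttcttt
Sub1: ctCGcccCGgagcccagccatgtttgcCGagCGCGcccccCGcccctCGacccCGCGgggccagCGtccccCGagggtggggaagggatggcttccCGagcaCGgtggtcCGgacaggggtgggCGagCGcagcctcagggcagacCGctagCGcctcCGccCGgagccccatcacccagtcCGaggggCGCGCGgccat
Usp7: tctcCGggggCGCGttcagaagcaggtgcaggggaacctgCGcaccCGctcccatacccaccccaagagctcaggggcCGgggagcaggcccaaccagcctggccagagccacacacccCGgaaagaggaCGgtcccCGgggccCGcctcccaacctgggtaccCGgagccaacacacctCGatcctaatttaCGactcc
Ccdc86: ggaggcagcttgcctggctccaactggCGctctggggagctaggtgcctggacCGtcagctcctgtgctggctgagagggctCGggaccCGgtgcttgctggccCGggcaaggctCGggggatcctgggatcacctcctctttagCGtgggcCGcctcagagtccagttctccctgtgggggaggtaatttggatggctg
These stretches hold 17, 24, 13 and 8 CG. Of all 200-base tiles of the 5 windows 67.4% hold at least 1 CG and 0.994% hold 10 or more, against 65.3% and 0.851% in the other windows. Around all narrow summits of the 5 windows the share with at least 1 CG was 83.2% and 84.1% in the CTR libraries and 83.6% and 82.3% in the NPM1 KD libraries. The share with 10 or more was 5.93% in each CTR library and 7.03% and 3.14% in the NPM1 KD libraries, so NPM1 KD replicate 2 had the lowest share on both counts. The median was 2 CG in every library, so the 4 sequences shown are denser in CG than most summits.

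For contrast, 2 regions found in 1 group only are shown, again with CG in capitals. The first is the middle 300 bases (chr15:3576238-3576537) of a region in an intron of Ghr, the growth hormone receptor gene, which both NPM1 KD libraries and neither CTR library held. The second is the whole of a region at chr19:7397613-7397830, outside protein-coding genes, which both CTR libraries and neither NPM1 KD library held.
Ghr intron, NPM1 KD only: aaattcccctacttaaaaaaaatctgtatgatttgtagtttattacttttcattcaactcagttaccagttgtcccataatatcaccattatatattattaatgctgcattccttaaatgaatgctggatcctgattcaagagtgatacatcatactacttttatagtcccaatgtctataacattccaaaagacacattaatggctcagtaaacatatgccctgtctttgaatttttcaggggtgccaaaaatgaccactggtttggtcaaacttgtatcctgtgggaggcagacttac
chr19 region, CTR only: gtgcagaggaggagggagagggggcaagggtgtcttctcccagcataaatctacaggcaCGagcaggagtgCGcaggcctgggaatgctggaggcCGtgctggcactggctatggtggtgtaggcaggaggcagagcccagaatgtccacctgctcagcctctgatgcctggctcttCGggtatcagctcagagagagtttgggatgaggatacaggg
The Ghr stretch holds 0 CG and the other one 4. The whole Ghr region of 1157 bp holds 3. Among regions held by NPM1 KD only, the middle 300 bases of the one over Coro7, Vasn and Dnaja3 hold 4 CG. Those of the one in Mrtfb hold 3. The middle 300 bases of a CTR only region, chr19:3931447-3931746, also hold 3, so stretches of both kinds hold CG. Of all 300-base tiles of the 5 windows 79.5% hold a CG.

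The strongest narrow peak of each window was the one with the highest −log10 q in any library, and that library was CTR replicate 1 in all 5, so its lead follows from the choice. The Sub1 peak had a −log10 q of 821 and 465 in the CTR libraries and 504 and 326 in the NPM1 KD libraries, with a fold enrichment of 49.1, 42.9, 41.1 and 25.2. It ranked 1st among the narrow peaks of its window in the first 3 libraries and 7th in NPM1 KD replicate 2. The Usp7 peak had 717, 459, 487 and 354 and the Ccdc86 peak 723, 430, 495 and 385; both ranked between 1 and 3 throughout. The Odc1 peak had 662, 350, 364 and 304 and ranked 1, 2, 3 and 5. In chr18 the top peak was at Snrpd1, which encodes a core protein of the spliceosome, with 393, 324, 269 and 305. In all 5 peaks the lowest fold enrichment was that of NPM1 KD replicate 2, and the −log10 q of a peak grows with the depth of the library, which is unknown here.

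H3K79me2 covered more of each rDNA-chromosome window in NPM1 KD than in CTR, and it covered more of most other windows by about the same share. Over the 5 windows together the broad peaks covered 92.7 and 88.1 kb per Mb in the CTR libraries and 100.5 and 96.6 kb per Mb in the NPM1 KD libraries. The groups did not overlap. The means were 90.4 ± 3.30 kb per Mb for CTR and 98.6 ± 2.70 kb per Mb for NPM1 KD (SD, n = 2 each), a difference of 8.15 kb per Mb or 9.01% (two-sided exact permutation test, p = 0.333, which is the smallest that 2 against 2 libraries can give). In the 14 other windows the values were 71.1 and 67.3 in CTR and 75.8 and 74.2 in NPM1 KD, a difference of 8.43%. Covered length over the whole genome moved too, from 236 and 223 Mb in the CTR libraries to 253 and 244 Mb in the NPM1 KD libraries, and its part in the result was not tested. The covered length of called peaks is not a read count. In a test that used aligned reads over the genome, the paper reported more regions losing the mark than gaining it after NPM1 KD. Its immunoblots showed a rise of total H3K79me2.

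The individual windows differed from one another far more than the groups did. chr19 was the most densely covered of all 19 autosomal windows, with 155 and 147 kb per Mb in the CTR libraries and 167 and 159 in the NPM1 KD libraries. Next of the 5 was chr16 with 104, 97.4, 113 and 106. chr12 had 75.5, 71.4, 83.5 and 79.9, and chr18 had 73.1, 70.5, 77.7 and 77.8. chr15 was the sparsest of the 5, with 55.8, 53.9, 61.3 and 60.7. The NPM1 KD libraries exceeded the CTR libraries without overlap in each of the 5 windows and in 13 of the 14 others; in the narrow lists this held for 5 of 5 and 9 of 14. The change was 11.2% in chr12, 11.2% in chr15, 8.59% in chr16, 8.28% in chr18 and 7.79% in chr19, all within the 3.07% to 16.1% of the other windows. Means over the 4 libraries ran from 57.9 to 157 kb per Mb in the 5 windows and from 22.6 to 127 kb per Mb in the others, so the 2 sets overlapped widely.

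**Figure D1:**
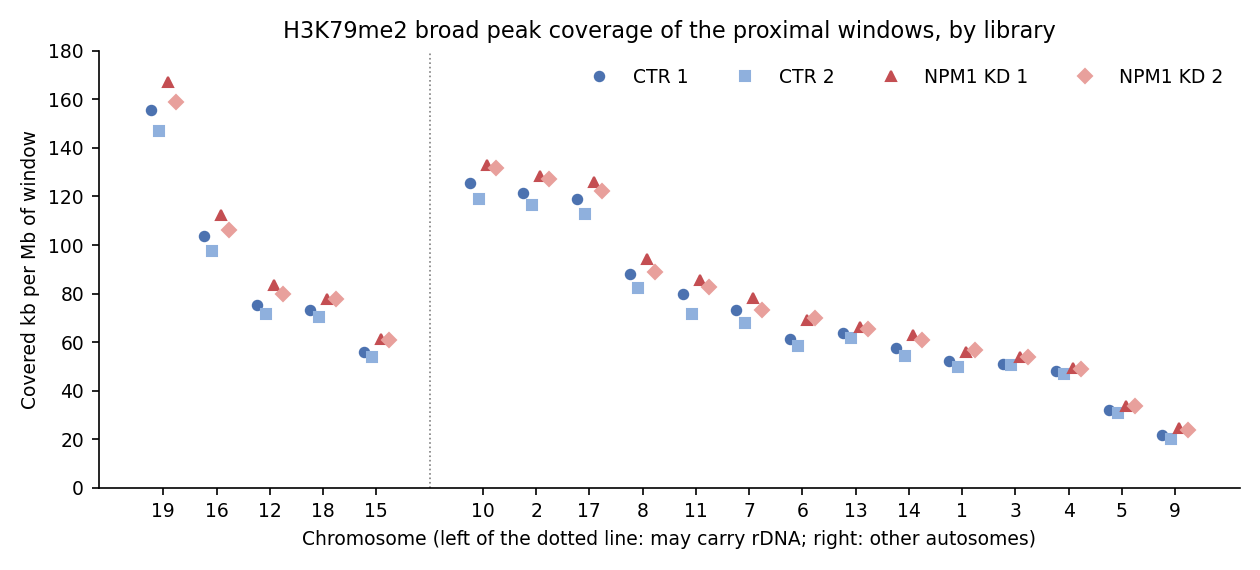
Covered kb per Mb of the 3 to 20 Mb window (y axis) for each autosome (x axis), 1 point per library from the broad peak lists; chromosomes that may carry rDNA stand left of the dotted line, and each set is sorted by its mean. chr19 is highest at 147 to 167 kb per Mb, and in all 5 windows on the left the NPM1 KD points lie above the CTR points.

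How the 5 windows compared with the others depended on what the coverage was divided by. Per Mb, the ratio of the rDNA-chromosome windows to the other windows was 1.30 and 1.31 in the CTR libraries and 1.33 and 1.30 in the NPM1 KD libraries. Per annotated gene it was 1.18, 1.19, 1.20 and 1.18. Per base of protein-coding gene it was 1.41, 1.41, 1.42 and 1.40, and per protein-coding gene it fell below 1, at 0.929, 0.932, 0.944 and 0.927. The 5 windows hold 8.89 protein-coding genes per Mb against 6.34 in the others, with 35.1% against 36.2% of their length in such genes and 41.8% against 40.7% GC. In kb, the covered length per annotated gene was 4.36 and 4.14 in the CTR libraries and 4.73 and 4.55 in the NPM1 KD libraries, against 3.69, 3.49, 3.93 and 3.85 in the other windows. Per protein-coding gene it was 10.4, 9.90, 11.3 and 10.9 against 11.2, 10.6, 11.96 and 11.7. The windows are parts of chromosomes and not replicates, so these levels are given without a test.

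The ratio itself did not separate the groups. Its mean per Mb was 1.307 ± 0.00304 for CTR and 1.314 ± 0.0166 for NPM1 KD (SD, n = 2 each), a difference of 0.00687 (two-sided exact permutation test, p = 1). The CTR values lay between the NPM1 KD values, and without NPM1 KD replicate 1 the difference turned to -0.00485, as it did in the narrow lists at -0.000647. chr19 holds 382 of the 756 protein-coding genes, and without that window the ratio was 1.087 in CTR and 1.099 in NPM1 KD (difference 0.0119, exact permutation p = 0.333). With windows of 3 to 30 Mb it was 1.095 and 1.101.

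**Figure D2:**
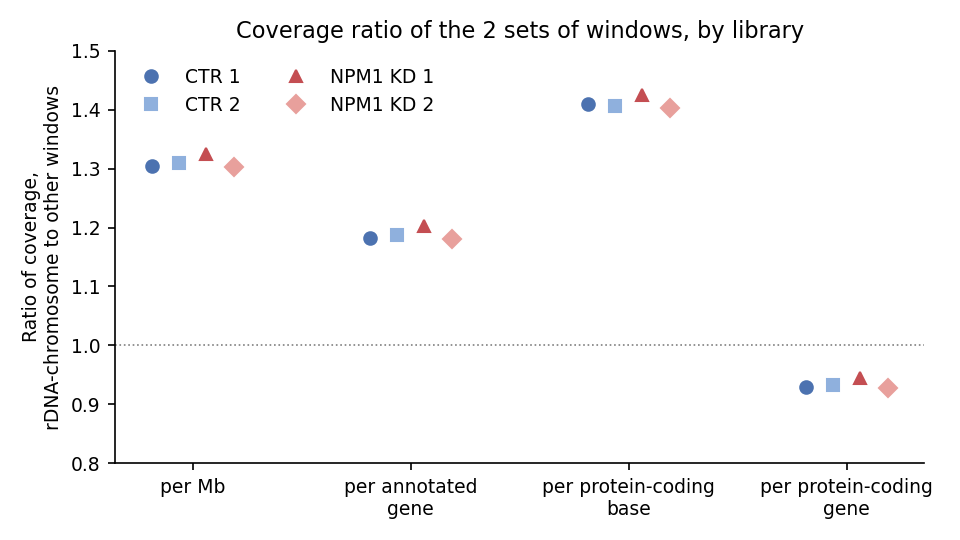
Ratio of broad peak coverage in the 5 rDNA-chromosome windows to that in the 14 other windows (y axis, not starting at 0), with the coverage divided by 4 different lengths or gene counts (x axis), 1 point per library. In every case the 2 NPM1 KD points lie on either side of the CTR points, and only per protein-coding gene does the ratio fall below 1, at 0.927 to 0.944.

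Along the 5 windows the mark was unevenly spread, and each chromosome had its own profile. The step of 1 Mb with the most covered bases lay between 3 and 4 Mb in chr12, 4 and 5 Mb in chr15, 17 and 18 Mb in chr16, 10 and 11 Mb in chr18 and 5 and 6 Mb in chr19. That of chr16 was the highest, with 319 kb as the mean of the 4 libraries. In the average over these unlike chromosomes the highest step was that between 4 and 5 Mb, where the mark covered 210 and 198 kb in the CTR libraries and 231 and 222 kb in the NPM1 KD libraries. Between 19 and 20 Mb it covered 7.13, 7.19, 7.67 and 7.60 kb. In the same average the other raised steps included that between 8 and 9 Mb, with 155, 147, 165 and 160 kb. That between 10 and 11 Mb had 111, 103, 121 and 119 kb, and coverage was also higher between 16 and 18 Mb. In 49 of the 85 steps of 1 Mb (5 chromosomes by 17 steps) the NPM1 KD libraries exceeded the CTR libraries without overlap and in 0 they fell short, against a background of 50.5% above and 1.86% below over the steps of all 19 windows. A further 13 of the 85 steps held no broad peak in any library. In the narrow lists 37 of the 85 steps lay above and 6 below, against a background of 39.0% and 11.5% over the narrow steps of all 19 windows. The largest step difference was between 4 and 5 Mb of chr12, the step that holds Ncoa1, with 229 and 215 kb in CTR and 281 and 277 kb in NPM1 KD.

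**Figure D3:**
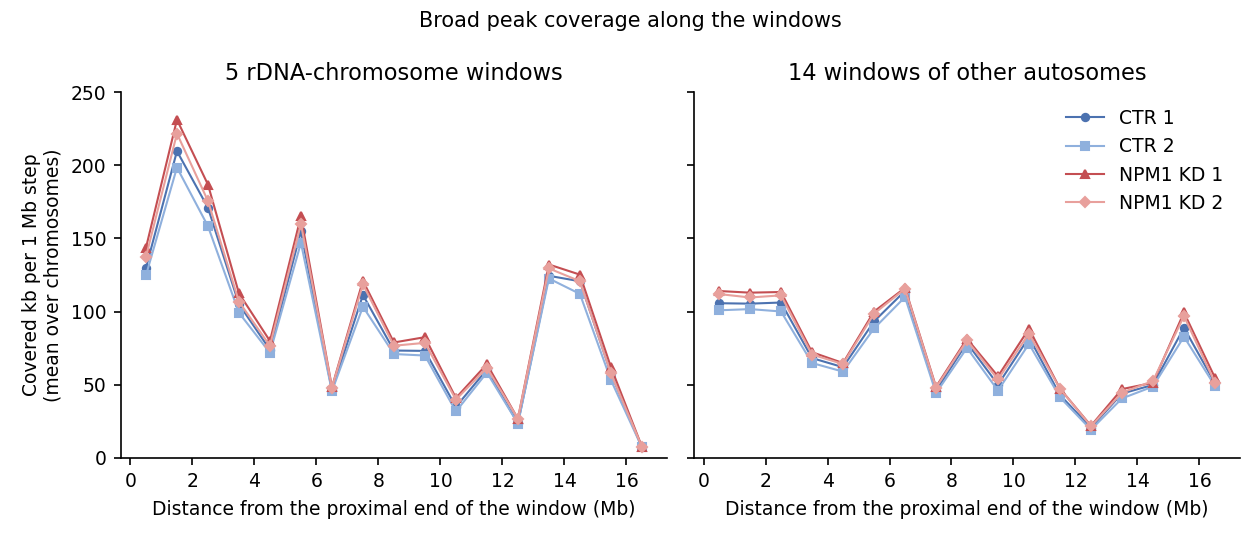
Covered kb per 1 Mb step (y axis, mean over the chromosomes of each set) against the distance from the proximal end of the window in Mb (x axis), 1 line per library, with the 5 rDNA-chromosome windows left and the 14 others right. The highest step on the left reaches 198 to 231 kb, the NPM1 KD lines run above the CTR lines over most of both panels, and the 4 lines of each panel rise and fall at the same steps.

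Taken as a set, the 5 windows were covered about as densely as the rest of their chromosomes, while the windows of the other autosomes were covered less densely than theirs. The density of the window divided by that of the chromosome beyond 20 Mb was 0.983 and 0.986 in the CTR libraries and 0.993 and 0.990 in the NPM1 KD libraries. In the other autosomes it was 0.706, 0.706, 0.701 and 0.713. The 5 chromosomes were not alike in this: the mean over the libraries was 1.51 in chr16, 1.38 in chr19, 0.852 in chr12, 0.783 in chr18 and 0.498 in chr15, against 0.193 to 1.13 in the single windows of the other autosomes. The groups did not overlap in the 5 windows together (0.985 ± 0.00185 and 0.992 ± 0.00228, SD, n = 2 each, exact permutation p = 0.333), and they overlapped in the others. In the narrow lists the nearest values of the 5 windows together were 0.988 in CTR and 0.989 in NPM1 KD. By chromosome, the ratio rose without overlap in chr12 and chr15 and overlapped in chr16 and chr18. It fell in chr19, from 1.39 and 1.41 in CTR to 1.38 and 1.35 in NPM1 KD. In the narrow lists the groups overlapped in chr12 (0.848 and 0.843 in CTR, 0.855 and 0.845 in NPM1 KD). They also overlapped in chr15 (0.483, 0.488, 0.484 and 0.505). The fall in chr19 remained there, from 1.433 and 1.448 in CTR to 1.431 and 1.386 in NPM1 KD. Windows of other autosomes also went both ways, with chr6 rising and chr4 falling without overlap.

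More of the covered length lay in wide peaks after NPM1 KD, while the number of peaks did not order the groups. Peaks of 20 kb or more held 47.2% and 50.3% of the covered length of the 5 windows in the CTR libraries and 54.3% and 53.8% in the NPM1 KD libraries. There were 95 and 96 such peaks in CTR and 117 and 111 in NPM1 KD. In the other windows the shares were 48.3%, 52.2%, 54.1% and 53.3%. The number of broad peaks was 1378 ± 294 for CTR and 1480 ± 72.1 for NPM1 KD (SD, n = 2 each), a difference of 102 (two-sided exact permutation test, p = 1), and without CTR replicate 2, which has the shortest list, the difference was -106. Without CTR replicate 1 it was 310, and without NPM1 KD replicate 1 and replicate 2 it was 153 and 51.

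When the broad lists were merged, the 5 windows held 1653 regions, of which 683 were present in all 4 libraries and 598 in 1 library alone. Both NPM1 KD libraries and neither CTR library held 75 of them, or 4.54%, and both CTR libraries and neither NPM1 KD library held 11, or 0.665%. Over all 51230 regions of the genome these shares were 4.96% and 0.589%, which are close to those of the windows. In the narrow lists 172 of 2979 regions (5.77%) were held by NPM1 KD only and 28 (0.940%) by CTR only, against 4.79% and 1.20% of all narrow regions. Of the 683 shared regions 334 were wider in both NPM1 KD libraries than in both CTR libraries and 20 were narrower, which is 48.9% and 2.93% against a background of 43.5% and 5.00%. In the other windows the shares were 42.0% and 6.36%. In limma on log2(covered bp + 1000), 0 of the 1653 regions passed an adjusted p of 0.05, as did 0 (0%) of all 51230, while 145 of the 1653 (8.77%) had an unadjusted p below 0.05 with a higher value in NPM1 KD and 14 (0.847%) with a lower one. Over all 51230 regions these counts were 4236 (8.27%) and 426 (0.832%). The split depends on CTR replicate 2. Without it more regions were lower than higher at that threshold, both in the windows and over the genome. The median log2 fold change was then 0.120 over the 1653 regions and 0.106 over all regions. Without NPM1 KD replicate 1 the fit called 296 of these regions (17.9%, against 9257 or 18.1% of all regions) and without NPM1 KD replicate 2 it called 348 (21.1%, against 10817 or 21.1%); in both, the spread of the lone NPM1 KD library is assumed to equal that of the CTR libraries. Among the 420 regions left at a −log10 q minimum of 5 limma called 1 (0.238%, against 0.667% of all regions left at that minimum).

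The widest domain held by all 4 libraries in each window lay over Gnaq, Klhl29, Plcxd3, Zeb1 and Crebbp. Over Gnaq, which encodes a G protein subunit, the region at chr19:16131799-16323804 (192006 bp) had 187070 and 187653 covered bp in the CTR libraries and 190529 and 189762 in the NPM1 KD libraries. Over Klhl29 at chr12:5183081-5350556 it had 162240, 157868, 165918 and 162859. Over Plcxd3 at chr15:4419542-4581085 it had 159676, 158096, 160106 and 160104. Nearly the whole domain was held by each library, and the NPM1 KD values lay slightly above the CTR values. Over Zeb1, a zinc finger repressor, the region at chr18:5591154-5726159 had 130660, 129155, 134026 and 133199. Over Crebbp, a histone acetyltransferase, the region at chr16:4126624-4213396 had 85699, 86010, 86730 and 86721. Counted over the gene span, Gnaq had 225204, 227187, 240879 and 234774 covered bp and Zeb1 had 151472, 146816, 155550 and 157409, without overlap of the groups. Plcxd3 had 195429, 194690, 197044 and 194579 and Prune2, the gene of chr19 with most covered bp after Gnaq, had 214947, 203699, 214839 and 218062, both with overlap.

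Bases held by both NPM1 KD libraries and neither CTR library summed to 289 kb in the 5 windows, against 23.4 kb for the reverse and 6998 kb in all 4 libraries. Of the 289 kb, 82.6% lay inside regions that all 4 libraries held and 90.4% in protein-coding genes. For the 23.4 kb held by CTR only these shares were 75.5% and 84.8%, and for the bases held by NPM1 KD only in the other windows 80.8% and 87.9%, so bases of each kind lay mostly inside shared domains. The 75 regions called in both NPM1 KD lists alone had a median width of 625 bp (182 to 2421). Of these, 70 (93.3%) lay in protein-coding genes, 4 (5.33%) within 3 kb of a gene start and 58 (77.3%) within 10 kb of a region held by all 4 libraries. Of the 598 regions of 1 library alone 538 lay in protein-coding genes, 72 near a gene start and 463 (77.4%) within 10 kb of a shared region, and 9 of the 11 regions held by CTR only (81.8%) lay within 10 kb of a shared region. By chromosome there were 18 in chr12, 16 in chr15, 12 in chr16, 9 in chr18 and 20 in chr19. Dtnb, which encodes dystrobrevin beta, held 7 of them, Pdzd2 held 5, and Atad2b and Mrtfb held 4 each.

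The regions found in 1 group only were weak, and 3 of each kind are given, picked by the −log10 q of whichever library had the lower one. In NPM1 KD only, the region over Coro7, Vasn and Dnaja3 at chr16:4642648-4644192 had a −log10 q of 3.40 and 2.16. The one in Mrtfb at chr16:13377993-13378477 had 2.14 and 2.31, and the one in the Ghr intron printed above, at chr15:3575810-3576966, had 2.10 and 2.43. In CTR only, a region of 387 bp at chr18:7319238-7319624 had 2.54 and 2.33, the 218 bp on chr19 printed above had 2.67 and 1.60, and a region at chr19:3931333-3931861 had 1.57 and 2.63. All 6 had a fold enrichment of 1.83 to 2.39, against 23.9 or more at the top peaks.

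Of the 1807 genes of the windows 709 carried a broad peak within the gene body or 3 kb upstream in at least 1 library (marked genes), and 648 did so in all 4. The share marked was 39.2%, against 28.1% in the other windows and 33.9% in the genome. Among protein-coding genes it was 61.6%, against 48.7% and 54.0%. In 276 of the 709, or 38.9%, the NPM1 KD libraries both had more covered bp than either CTR library, and in 12, or 1.69%, both had less; over all 18781 marked genes of the genome the shares were 38.7% and 3.14%. Among protein-coding genes 215 of 466 lay above and 11 below, with a background of 46.7% and 2.89%. The shares above are close to those of the genome. The share over all marked genes was 30.7% when only peaks at a −log10 q minimum of 5 were kept (30.2% in the genome), and it ran from 44.7% to 66.1% with 1 library left out, when fewer libraries had to be ordered (61.8% without CTR replicate 1, 66.1% without NPM1 KD replicate 2). The 215 genes above gained 594 kb in sum with a median of 1594 bp, and 12 of them gained 10 kb or more, while the 11 below dropped by 3.96 kb in sum, and at most dropped by 854 bp. By length, 45 of 62 genes over 100 kb (72.6%) and 35 of 54 genes of 50 to 100 kb (64.8%) were above. So were 94 of 234 genes of 10 to 50 kb (40.2%) and 41 of 116 under 10 kb (35.3%). Over the marked protein-coding genes of the genome the shares were 64.9%, 59.6%, 43.6% and 30.8%, the same order by length. Genes were also split by the covered share of their span, as the mean of all 4 libraries, NPM1 KD included. Among the 61 genes covered over 90% or more, which have little span left to gain, 18 were above (29.5%). At 50 to 90%, 10 to 50% and under 10% covered the shares were 48.8%, 52.9% and 36.5%. The matching shares of the genome were not computed.

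**Figure D4:**
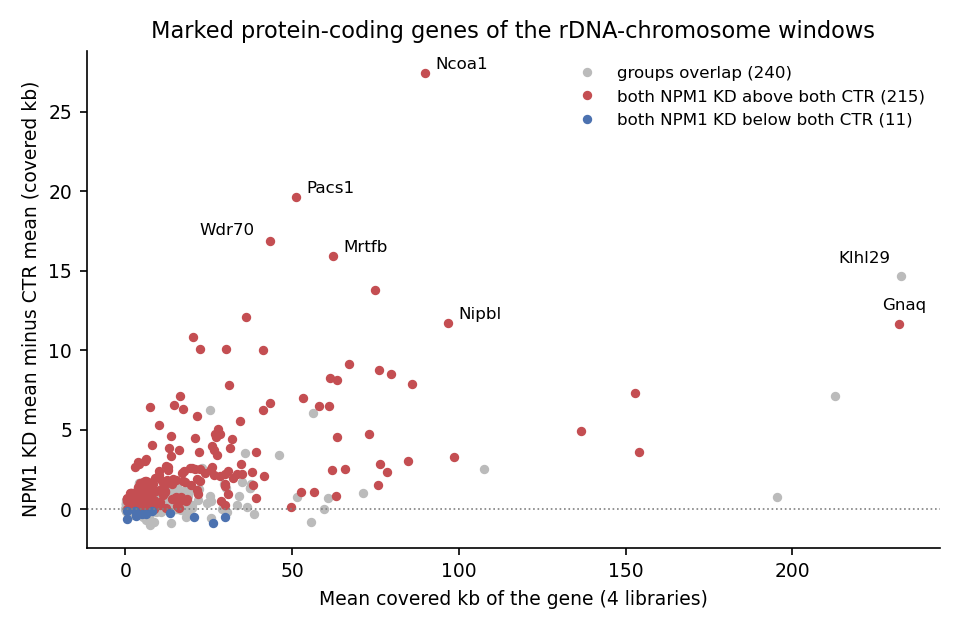
Difference of the group means in covered kb (y axis, NPM1 KD minus CTR) against the mean covered kb over the 4 libraries (x axis) for the 466 marked protein-coding genes of the 5 windows, 1 point per gene, coloured by whether the groups overlap. The red points, 215 genes with both NPM1 KD libraries above both CTR libraries, are highest at Ncoa1, while the 11 blue points stay close to the zero line.

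limma fitted over all 18781 marked genes called 5 genes at an adjusted p of 0.05 (0.0266%), and 0 of the 709 genes of the windows were among them. The 5 calls fell to 0 with the replicate block, in the narrow lists, among genes with a mean of at least 1000 covered bp and with any 1 library left out. At an unadjusted p below 0.05, 73 of the 709 (10.3%) were higher in NPM1 KD and 4 (0.564%) lower, against 2352 (12.5%) and 124 (0.660%) of all 18781. With the replicate block 120 of the 709 (16.9%) were higher and 5 (0.705%) lower, against 15.3% and 0.836% of all 18781. The median log2 fold change was 0.07 over the 709 genes and 0.06 over all. A −log10 q minimum of 5 for the peaks led to 6 calls in the windows (Pomc, Zc3h7a, Smpd4, Sdhaf2, Gm25713 and Mir1898, named after their values were seen). These were 0.985% of the genes left there, against 0.522% of all genes left. A pseudocount of 200 bp gave 1 (0.141%, against 0.117%) and the gene body alone gave 2 (0.302%, against 0.463%). The smallest adjusted p was that of Ghr at chr15:3317760-3583492, with 1420 and 1387 covered bp in the CTR libraries and 4036 and 4099 in the NPM1 KD libraries. The NPM1 KD values lie well above the CTR values, yet the peaks cover only 0.522% and 1.51% of this long gene (log2 fold change 1.08 ± 0.01 SE, limma adjusted p = 0.0594). Nbas, which codes for a factor of Golgi-to-ER transport, had 14255, 13992, 20402 and 20428 covered bp (0.50 ± 0.01 SE, limma adjusted p = 0.0967).

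The 4 protein-coding genes with the largest gain were Ncoa1, Pacs1, Wdr70 and Mrtfb. Ncoa1, a coactivator of nuclear receptors at chr12:4247362-4477182, had 79385 and 72857 covered bp in CTR and 107409 and 99695 in NPM1 KD, a mean gain of 27431 bp. Pacs1, a sorting protein of the trans-Golgi network at chr19:5133158-5273119, had 43816, 38928, 60693 and 61317, a gain of 19633 bp. Wdr70 at chr15:7873055-8099209 had 40791, 29128, 48009 and 55673, and Mrtfb, a coactivator of serum response factor at chr16:13256481-13417529, had 59066, 49697, 70553 and 70081. In all 4 genes the groups did not overlap, but for Pacs1 and Wdr70 they did at a −log10 q minimum of 5. None passed limma, with adjusted p of 0.286, 0.254, 0.479 and 0.395 in the order named.

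The 4 largest losses were small by comparison. Incenp, which encodes a part of the chromosomal passenger complex, had 26330 and 26817 covered bp in CTR and 25815 and 25625 in NPM1 KD, so that the mean dropped by 854 bp. Lrrn4cl had 892, 556, 0 and 270, Snx32 had 20952, 20866, 20228 and 20624, and Zfp91 had 30176, 30221, 29387 and 30046. Incenp, Snx32 and Zfp91 stayed covered over most of their span, and at a −log10 q minimum of 5 the groups overlapped for Incenp, Lrrn4cl and Zfp91. limma gave adjusted p of 0.395, 0.421, 0.485 and 0.639 for Incenp, Lrrn4cl, Snx32 and Zfp91.

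Genes of ribosome assembly and of RNA polymerase I were marked in 9 of 9 listed cases, beside 61.6% of the protein-coding genes of the windows. Members of this and the other lists were chosen with earlier results of these data known. Their counts therefore describe the lists alone. Of the 9 genes 6, Wdr70 among them, were above in NPM1 KD without overlap and 0 below, with a median difference of 1125 bp. At a −log10 q minimum of 5 there were 5 above and 0 below. Of all marked protein-coding genes of the genome 46.7% were above and 2.89% below, with a median difference of 617.5 bp, and whether the 9 genes differ from the rest was not tested. Rrn3, the factor that brings RNA polymerase I to the rDNA promoter, at chr16:13780708-13814839, had 25503 and 24394 covered bp in CTR and 30463 and 28475 in NPM1 KD, which is 67.2% and 79.4% of its span. Its groups stood apart (log2 fold change 0.23 ± 0.05 SE, limma adjusted p = 0.328). Brix1, needed for the large ribosomal subunit, had 10948, 11270, 12481 and 12925. Nol10 had 58983, 56678, 66732 and 61953, while Trmt112, a partner of rRNA methyltransferases, was covered in full at 4352 bp in every library. Ccdc86 and Rsl1d1, both nucleolar proteins, overlapped between the groups. Wdr70, the list member with the largest change, is better known for histone H2B ubiquitination than for ribosome assembly. None of the 9 passed limma.

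**Figure D5:**
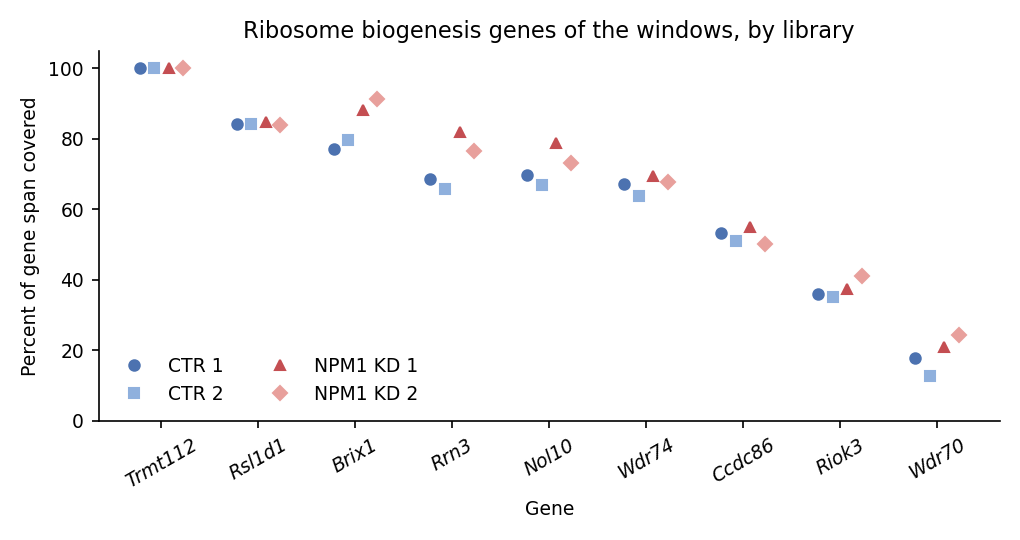
Percent of the gene span (gene body and 3 kb upstream) covered by broad peaks (y axis) for the 9 genes listed under ribosome biogenesis in the 5 windows (x axis, sorted by mean), 1 point per library. Rrn3, Brix1, Nol10, Wdr74, Riok3 and Wdr70 show the NPM1 KD points above the CTR points, and Trmt112 is at 100% in all 4 libraries.

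Chromatin regulators, a list also chosen with earlier results known, were marked in 24 of 24 cases, beside 61.6% of the protein-coding genes of the windows. Of the 24 genes 19 were above in NPM1 KD and 0 below, with a median difference of 2128 bp. At a −log10 q minimum of 5 the count above was 12. Of all marked protein-coding genes of the genome 46.7% were above (36.3% at that minimum), and 64.9% of those over 100 kb, with a median difference of 617.5 bp; the part of gene length in the count for this list was not tested. Dnmt3a, the de novo DNA methyltransferase at chr12:3806007-3914443, had 83230 and 83236 covered bp in CTR and 87367 and 85190 in NPM1 KD. Nipbl, which loads cohesin, had 92049, 89862, 102566 and 102748, and Asxl2, a Polycomb-associated protein, had 59685, 59278, 67874 and 67374. Atad2b, a bromodomain protein, had 25166, 24874, 33550 and 36706. In these genes the lower NPM1 KD value exceeds the higher CTR value. Crebbp had 98342, 95610, 102052 and 98455, Kat5, an acetyltransferase near the median coverage of the list, had 5938, 4749, 8287 and 5958, and Dpf2 was covered over 92.5% of its span, the most in the list, against 20.7% for Rbbp8, the least. The adjusted p of limma was 0.425 for Dnmt3a, 0.205 for Nipbl and 0.155 for Asxl2.

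Of 22 listed neuronal and neuroblastoma genes 16 were marked, beside 61.6% of the protein-coding genes of the windows. Among the 16 marked genes 9 were above in NPM1 KD and 0 below. That is 56.2% above, beside 46.7% above and 2.89% below of all marked protein-coding genes. The median difference was 471 bp over the 16 marked genes and 80.8 bp over all 22. Mycn, the driver oncogene of many neuroblastomas, at chr12:12936093-12941914, had 5936 and 5807 covered bp in CTR and 5977 and 5997 in NPM1 KD, or 67.2% of its span on average. This difference is no larger than that between the CTR libraries (log2 fold change 0.02 ± 0.01 SE, limma adjusted p = 0.580). Ddx1, often co-amplified with Mycn, had 13919, 10222, 15855 and 14950. Cdh2 (N-cadherin) had 152028, 152237, 154872 and 156630, and Klhl29 had 233397, 217076, 247764 and 232111, with overlapping groups. Odc1, which holds the strongest narrow peak of chr12, had 7351, 6406, 6555 and 6002, also with overlap, although at a −log10 q minimum of 5 it was below in NPM1 KD. Syt7, a synaptotagmin near the median coverage of the list, had 3880, 652, 6505 and 3989, and Gng3, a G protein subunit, was covered over 97.6% of its span. Chrm1, Gdnf and Grin2a had no peak in any library.

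Of the 26 listed genes of the chr16 block that corresponds to human 22q11, 24 were found in the annotation. Of these, 19 were marked, beside 61.6% of the protein-coding genes of the windows. Among the 19, 3 were above in NPM1 KD (Hira, Tango2 and Trmt2a), 1 was below (Slc25a1) and 15 overlapped. Of all marked protein-coding genes 46.7% were above and 2.89% below. At a −log10 q minimum of 5 there were 4 above and 1 below; the difference from other genes was not tested. Hira, a histone H3.3 chaperone, had 42755, 37111, 49675 and 43553 covered bp. Ranbp1 was covered over 98.9% of its span and Dgcr8, a part of the microRNA processor, over 88.1% in CTR and 90.4% in NPM1 KD. Tbx1, Gsc2, Tssk2, Cldn5 and Rtn4r carried no peak.

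Cell cycle and DNA repair genes, a list chosen in the same way, were marked in 20 of 20 cases, beside 61.6% of the protein-coding genes of the windows. Of the 20 genes 9 were above (45.0%) and 3 below, beside the 46.7% and 2.89% of all marked protein-coding genes. At a −log10 q minimum of 5 there were 6 above and 2 below. Ercc4, a nuclease subunit of excision repair, had 12789, 13597, 15760 and 14471 covered bp, and Mus81, a structure-specific nuclease, had 4868, 3853, 6522 and 5684. The 3 below were Incenp, Gen1 (13385, 13357, 13123 and 13136) and Fen1 (7874, 7886, 7813 and 7789), with small differences in Gen1 and Fen1. The 3 listed nuclear RNAs of chr19 were covered nearly in full: Malat1 was covered over 9983 bp and Snhg1 over 5969 bp in each library, and Neat1 over 23771, 23771, 23771 and 23188.

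Genes of other tissues were almost bare, 22 of 25 having no peak in any library. Of the protein-coding genes of the windows 61.6% were marked. Apob (liver lipoprotein), the protamine genes Prm1, Prm2 and Prm3 (sperm), Myh11 (smooth muscle) and Ms4a1 (B cells) were among the 22. The exceptions were Ghr, Best1 (596, 558, 445 and 477 covered bp) and Lama3 (252, 0, 0 and 0). Among the neuroblast and neuron markers elsewhere in the genome, Phox2a and Hand2 were covered in full in all libraries, while Dbh, Nefl and Nefm had no peak. Of fibroblast, glia, blood and liver markers 0 of 4, 1 of 4, 0 of 2 and 0 of 2 carried one, and the 1, Mbp, was covered over at most 2.42%. The targeted gene, Npm1, was covered over 12396 and 12300 bp in CTR and 12332 and 12396 bp in NPM1 KD. A histone mark on the gene does not measure its knockdown, which the paper showed by immunoblot for the ChIP-seq replicates. Covered bp also do not measure how strong the mark was on the gene.

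Long stretches of the windows had no broad peak at all. The longest was 2827 kb in chr12 (chr12:5379887-8207366), with Apob as its only protein-coding gene, and the others were 1924 kb in chr15, with Cdh10, 1827 kb in chr18, 1653 kb in chr19 and 1584 kb in chr16. The gap in chr19 holds 44 protein-coding genes, most of them olfactory receptors, whereas the gaps in chr16 and chr18 hold 0. At the other extreme the first region held by all 4 libraries began 236 kb into the chr12 window at Rab10, 279.8 kb in chr19 at Ighmbp2 and Mrpl21, 330.2 kb in chr18 at Crem, 579 kb in chr15 at Ghr and 742 kb in chr16 at Zfp263.

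The annotation also lists 13 short genes of rRNA type in the 5 windows, which are not the rDNA arrays that the assembly lacks. Of these genes 11 had no peak. One lies inside Ncoa1 and overlapped between the groups (134, 779, 1256 and 196 covered bp of its span). The other, Gm27952 at chr12:12682514-12682618, lies outside protein-coding genes and had 1601 and 1476 covered bp in CTR and 360 and 374 in NPM1 KD, the only gene of the 709 below in both NPM1 KD libraries that is not protein coding. Gm27952 was singled out after its values were seen (log2 fold change -0.89 ± 0.03 SE, limma adjusted p = 0.130). Its span of 3105 bp is nearly all upstream sequence, so the covered bp lay mostly outside the short gene itself. In the narrow lists its groups overlapped, at 493, 296, 311 and 48 bp, and so they did at a −log10 q minimum of 5.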

How the data were processed

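H3K79me2 ChIP-seq was described from the peak lists of 4 libraries (2 CTR, 2 NPM1 KD). According to the methods and labels, the authors aligned paired-end reads to mm10 (GRCm38) with Bowtie2 2.3.4.1, retained uniquely mapped reads of high quality and called peaks in each library alone with MACS2 (2.2.6 in the submitters' processing notes; the methods name another version). Each deposited list gives start and end, a score, a fold enrichment (a ratio) and −log10 p and −log10 q values; which control was used is not given in the sources used here. Read depth is unknown from the lists.

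Covered bp were summed over broad peaks wholly inside each window (narrow lists beside them), over genes of GENCODE vM21 (55450 genes; body and 3 kb upstream) and over regions merged at 1 shared bp. The 4 libraries entered a two-sided exact permutation test, and genes and regions were fitted with limma 3.58.1 (R 4.3.3) on log2(covered bp + 1000), Benjamini-Hochberg adjusted over all features at 0.05. On simulated data limma recovered, of 200 changed genes among 18781, 67, 128 and 166 at log2 changes of 1, 2 and 4, with 3, 9 and 22 false calls; of 200 changed regions among 51230 it recovered 0, 0 and 144, with 0 false calls. Named genes were, in each window, the 2 protein-coding genes with most covered bp, the 4 with the largest gain and loss among those whose groups do not overlap, the most, least, median and most changed members of 7 gene lists, the widest shared region and strongest narrow peak per window, the 3 strongest regions found in 1 group only per direction, and Mycn, Dnmt3a and Rrn3; other names are members of a list or were chosen after their values were seen. Windows, lists and members were chosen with earlier results of these data known. Alternatives were narrow lists, a −log10 q minimum of 5, equal list sizes, windows of 3 to 10 and 3 to 30 Mb, leaving out chr19, peaks cut at the window end, assembled bases, pseudocounts, a filter at 1000 bp, the gene body alone, each library left out and a replicate block. Sequences were read from GRCm38; motif counts use CG, which is its own reverse complement. Some of the cell type markers are not reported here.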

Additional observations from a re-analysis of the deposited data

How the results depend on the processing

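The gain in covered kb per Mb of the 5 windows (8.15) kept its direction under every alternative run, from 5.70 in the narrow lists to 11.2 in windows of 3 to 10 Mb, and from 5.82 to 10.5 with 1 library left out; the design cannot reach a p below 0.333. The difference in ratio to the other windows was -0.000647 in the narrow lists and ranged from -0.00485 to 0.0186 with 1 library left out. The difference in the number of broad peaks was -9 at a −log10 q minimum of 5 and -23 for lists of equal size, and ranged from -106 to 310 with 1 library left out; the cause was not tested. limma called 0 genes of the windows, but 6 at a −log10 q minimum of 5, 1 with a pseudocount of 200 bp and 2 for the gene body alone (genome-wide 5, 83, 22 and 81), and 0, as genome-wide, with any 1 library left out, in the narrow lists and among genes with a mean of at least 1000 bp. It called 0 regions of the windows, 1 at a −log10 q minimum of 5 (genome-wide 0 and 82), and 0 to 348 with 1 library left out, where 1 residual degree of freedom remains (genome-wide up to 10817). The share of marked genes with NPM1 KD above (38.9%) was 30.7% at a −log10 q minimum of 5, 46.1% among protein-coding genes, and 44.7% to 66.1% with 1 library left out, which requires fewer libraries to be ordered.

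Replicate numbers do not say that CTR and NPM1 KD libraries share a batch. Deviations of same-numbered libraries correlated at 0.195 over 18781 genes and 0.158 over the 709 of the windows. With the replicate block the differences stayed at 8.15 kb per Mb, 0.00687 in ratio and 102 peaks, with no p, and limma called 0 genes and 0 regions, in the windows and genome-wide.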

Other observations

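Beyond protein-coding genes, the mark lay over part of the small RNA genes of the 5 windows. Of 37 snoRNA genes 16 were marked, of 80 microRNA genes 39, of 44 snRNA genes 12 and of 93 antisense genes 60. Only 32 of 377 processed pseudogenes and 26 of 176 lincRNA genes were. Of all 1807 genes of the windows 39.2% were marked. Small RNA genes often lie inside longer genes, and peaks have no strand, so the covered bp cannot be assigned to the small RNA itself.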
